A study of Mus musculus with 8 samples.

Results

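The 10 genes described here are those of the classical MHC class I antigen presentation pathway: the heavy chains H2-K1 and H2-D1, their light chain B2m, the peptide transporter Tap1 and Tap2, the loading factor Tapbp, the immunoproteasome subunits Psmb8 and Psmb9, the trimming peptidase Erap1 and the transcriptional regulator Nlrc5. They were taken by symbol, and all 10 were found among the 32285 genes of 8 single-cell libraries of mouse tongue epithelium. The study asked how normal oral epithelium changes when oncogenic programmes are switched on in it. Adult control mice (N) carried Krt14-CreERT and LSL-rtTA, with which tamoxifen given into the tongue and doxycycline permit transgene expression. E mice also carried tetON_E6-E7, the human papillomavirus oncogenes, Y mice carried tetON_YAP1 with the constitutively active S127A change, and EY mice carried both. Every group, controls included, carried both regulatory transgenes, per the study's methods together with an H2B-GFP reporter, was induced in the same way and was sampled after 15 days. Each group had 2 libraries, named N1, N2 and so on. The Krt14 promoter limits recombination to basal-type epithelial cells, so immune cells of the same libraries were not targeted by design. The label of N2 carries 2 animal numbers, so that library may pool animals. The labels give no sequencing batch.

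Class I molecules carry peptides from inside a cell to its surface, where CD8 T cells and natural killer cells inspect them. Proteasomes cut proteins into peptides, the TAP transporter moves these into the endoplasmic reticulum, peptidases trim them, and tapasin helps load them onto a heavy chain paired with beta-2-microglobulin. Interferons raise most genes of the pathway, in part through NLRC5, and many tumours and oncogenic viruses reduce it.

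Cells were called epithelial when 5 keratins (Krt5, Krt14, Krt15, Krt13 and Krt6a) held at least 0.5% of the UMIs (unique molecular identifiers, one per captured transcript) and Ptprc, the pan-leukocyte gene CD45, was at 0. Cells under that keratin share with at least 1 Ptprc UMI were called immune. Of 25199 cells within the study's quality limits, 12957 were epithelial and 10739 immune, with 170 epithelial cells in EY1 as the fewest and 4055 in E1 as the most. Whole libraries held 46483469 to 102427359 UMIs. The keratin share set both gates, so it does not check them. Its median was 1.87 to 2.23% of UMIs in the epithelial cells of a library and 0.0262 to 0.117% in immune cells. Cd3e, which neither gate used, was at 54.3 to 360 UMIs per 1e6 of the gate (CPM) in immune cells. In epithelial cells it was at 1.54 CPM or less. A panel of 12 immune genes summed to 53.3 to 126 CPM in the epithelial cells of N, E and Y2, to 267 in Y1, 674 in EY2 and 2369 in EY1, against 21782 to 130241 in immune cells. Summed stromal markers were at 609 to 1777 CPM in epithelial cells, except at 29.8 CPM in EY2. Among the 42550 barcodes, 235 sequences occurred in more than 1 library. Yap1 checked the YAP part of the labels, at 32.8 to 47.8 CPM in the epithelial cells of N and E and 166 to 452 in those of Y and EY. The E6-E7 part of the labels was not checked.

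In the GENCODE annotation of GRCm38, 7 of the 10 genes lie on chromosome 17, where H2-K1 (33996017 to 34000347, minus strand) and H2-D1 (35262730 to 35267499, plus strand) flank a block with Psmb9 (34181987 to 34187764, minus strand), Tap1 (34187553 to 34197225, plus strand), Psmb8 (34197721 to 34201454, plus strand) and Tap2 (34203527 to 34216321, plus strand). Psmb9 and Tap1 overlap head to head. Tapbp (33915899 to 33929292, plus strand) lies on the same chromosome, while B2m is on chromosome 2 (122147686 to 122153083, plus strand), Nlrc5 on chromosome 8 (94434356 to 94527272, plus strand) and Erap1 on chromosome 13 (74639568 to 74693201, plus strand). All are protein-coding.

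RefSeq promoter windows of GRCm38.p6 were matched for 8 of the 10 genes by symbol, and the 250 bases before the start were searched on both strands. The sequences below are shown because they are the heavy chain and light chain promoters with matches to interferon-type motifs, and the capitals mark the matches to GGGNNTTCC, a kappaB site, to TTTCACTTC, an interferon response sequence of class I promoters, and, in B2m, to TTTCNNTTT, an interferon response element core, read on the other strand.
H2-K1 window: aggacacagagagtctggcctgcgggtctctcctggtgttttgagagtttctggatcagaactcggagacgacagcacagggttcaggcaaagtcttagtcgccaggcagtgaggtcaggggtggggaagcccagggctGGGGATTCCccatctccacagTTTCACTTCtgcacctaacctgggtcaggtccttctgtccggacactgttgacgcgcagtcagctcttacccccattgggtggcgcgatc
H2-D1 stretch: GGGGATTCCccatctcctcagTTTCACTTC
B2m stretch: taagaacatgAAACTGAAAatgggaaagtc
The H2-K1 window is chr17:34000348-34000597 on the minus strand. The H2-D1 stretch is chr17:35262923-35262952 on the plus strand, 171 to 142 bases before the RefSeq start, which lies inside the GENCODE extent of the gene, and 29 of its 30 bases are the same as in the H2-K1 stretch that holds both motifs (chr17:34000429-34000458). The B2m stretch is chr2:122147539-122147568 on the plus strand. The TTTCACTTC sequence was found in 2 of the 8 members and in 0.4026% of 32536 promoter windows. It was searched for as a class I promoter sequence and its 2 members are near-identical there, so these counts do not test enrichment. GGGNNTTCC was found in the same 2 members and in 5.001% of windows, and TTTCNNTTT in B2m alone and in 9.35%. TTCNNNGAA, a gamma-activated site, was found in Psmb8 alone and in 7.04% of windows, and CCAAT in 6 members and in 33.8%. TGACGTCA, a cyclic AMP element, was in none of the 8 and in 1.56% of windows.

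In epithelial cells, class I presentation genes had higher levels in libraries with E6-E7 than in those without it, while their differences from control with active YAP alone ran from -0.07 to 0.70 on the log2 scale. For 6 of the 10 genes (H2-K1, Tap1, Tapbp, Psmb8, Psmb9 and Nlrc5) all 4 libraries with E6-E7 lay above all 4 without it, an arrangement that 2.79% of the 11703 genes averaging 1 CPM or more had. No member had all 4 libraries with YAP above the other 4, against 8.77% of genes. All 10 genes had both E libraries above both N libraries (22.8% of genes), 8 had both EY libraries above N (29.6%) and 2, H2-D1 and Tap1, had both Y libraries above N (25% of genes).

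**Figure D1:**
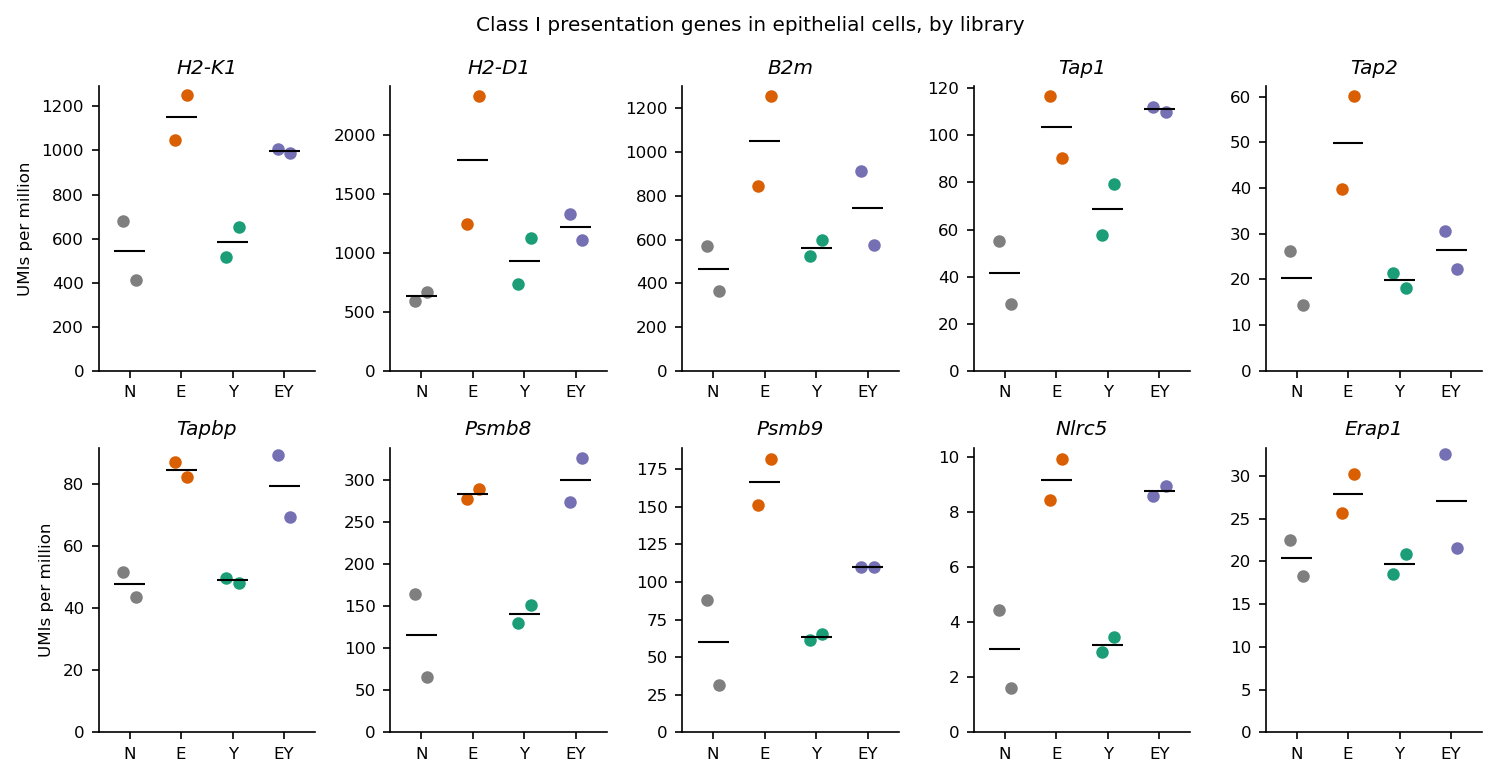
Level of each class I presentation gene in epithelial cells, in CPM (linear axis from 0), with 1 point per library and a bar at the mean of the 2 libraries of a group. The points of E and EY lie above those of N and Y for H2-K1, Tap1, Tapbp, Psmb8, Psmb9 and Nlrc5.

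Heavy chains bind the peptide. In order of library number, H2-K1 stood at 679 and 413 CPM in the control libraries, 1049 and 1250.3 in the E libraries, 516 and 653 in the Y libraries and 1005 and 990.0 in the EY libraries. The 4 libraries with E6-E7 were all higher than the 4 without it, and the 2 EY libraries were close together. H2-D1 had 596 and 671 CPM with neither transgene, 1248 and 2331 with E6-E7 alone, 739 and 1130.2 with YAP alone and 1329 and 1108 with both. E2 stood well above E1, and Y2 lay within the range of the EY libraries, so the groups with and without E6-E7 overlapped for this gene. Mean H2-K1 was 546 CPM ± 188 in controls, 1150 ± 142 with E6-E7, 584 ± 97.2 with YAP and 997 ± 10.3 with both (SD, n = 2 libraries).

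Heavy chain genes are near-identical in much of their sequence, and how reads that fit several of them were counted cannot be seen in the matrices, so the split between H2-K1 and H2-D1 is uncertain. The labels give no H2 haplotype for the animals, and its part in these levels and their ratio was not tested. The ratio of H2-D1 to H2-K1 in epithelial cells was 0.878 and 1.63 in the control libraries, 1.19 and 1.86 in the E libraries, 1.43 and 1.73 in the Y libraries and 1.32 and 1.12 in the EY libraries. In immune cells it was 1.03 and 1.66, 1.35 and 1.99, 1.42 and 1.82, and 2.31 and 1.55 in the same order. The ratio therefore differed between libraries of 1 group by more than between E and N, and N1 had the lowest value in both cell kinds. Summed over 14 class I heavy chain genes, the level in epithelial cells was 1.22 higher on the log2 scale in E than in N (SE 0.22, edgeR adjusted p 0.138) and 0.97 higher in EY than in N (SE 0.22, adjusted p 0.0264).

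B2m, the light chain that every class I molecule needs, stood at 570.2 and 365 CPM in the control libraries, 844 and 1257 in the E libraries, 525 and 598 in the Y libraries and 915 and 574 in the EY libraries. EY2 lay at the level of N1 and Y2, while the other 3 libraries with E6-E7 were above all 4 without it.

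The transporter subunits differed from each other. Tap1 had 55.0 and 28.5 CPM with neither transgene, 117 and 90.2 with E6-E7 alone, 57.7 and 79.3 with YAP alone and 112 and 110.1 with both. Libraries with E6-E7 were all above the others, by a small margin between Y2 and E2. Tap2 stood at 26.2 and 14.5 CPM in the control libraries, 39.8 and 60.1 in the E libraries, 21.5 and 18.2 in the Y libraries and 30.6 and 22.4 in the EY libraries. Only the E libraries stood clear of the rest, as EY2 was below N1. Tapbp encodes tapasin, which bridges the transporter and the empty heavy chain. It had 51.9 and 43.8 CPM with neither transgene, 87.1 and 82.3 with E6-E7 alone, 49.9 and 48.2 with YAP alone and 89.6 and 69.5 with both. N and Y together spanned 43.8 to 51.9 CPM, well below the lowest library with E6-E7.

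The immunoproteasome subunits replace constitutive ones and change which peptides are cut. Psmb8 stood at 164 and 66.1 CPM in the control libraries, 277 and 289 in the E libraries, 130.0 and 151 in the Y libraries and 274 and 325 in the EY libraries. Psmb9 had 88.3 and 31.6 CPM with neither transgene, 151 and 182 with E6-E7 alone, 61.8 and 65.2 with YAP alone and 110.0 and 109.7 with both. Both separated the libraries by E6-E7, and for both N1 was the highest and N2 the lowest library without it. Erap1, which trims peptides in the endoplasmic reticulum, had the smallest spread over the 8 libraries. It stood at 22.5 and 18.3 CPM in the control libraries, 25.7 and 30.1 in the E libraries, 18.5 and 20.8 in the Y libraries and 32.6 and 21.6 in the EY libraries, and EY2 was below N1.

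Nlrc5, the regulator that drives class I genes, was low everywhere and differed by the largest factor. It had 4.46 and 1.60 CPM with neither transgene, 8.41 and 9.91 with E6-E7 alone, 2.91 and 3.46 with YAP alone and 8.55 and 8.94 with both. The 4 libraries with E6-E7 spanned 8.41 to 9.91 CPM and the 4 others 1.60 to 4.46. The lowest library rested on 14 UMIs, which limits the precision of that value.

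Across the 8 libraries N2 was the lowest for 9 of the 10 genes, the exception being H2-D1, which was lowest in N1. E2 was the highest for 6 genes. The spread from the lowest to the highest library was 1.78-fold for Erap1 (the smallest), 2.05-fold for Tapbp and 6.19-fold for Nlrc5. Each gene followed the mean of the other 9 across the 8 libraries, with a Pearson r from 0.808 for H2-D1 to 0.987 for H2-K1, a description over libraries that share group structure.

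The tests put sizes on these differences. In E against N all 10 fitted log2 fold changes were positive, from 0.38 (Erap1) to 1.44 (Nlrc5), with a median of 1.22 where the median of all genes was -0.01. None of the 10 passed an adjusted p under 0.05 in edgeR's quasi-likelihood test, which called 0.243% of 13555 genes. At an unadjusted p under 0.05 there were 9 of 10 (3.73% of genes), and DESeq2 called 8 of 10 (0.954% of genes). For H2-K1 the log2 fold change was 1.01 (SE 0.23, edgeR adjusted p 0.334), for Tapbp 0.75 (SE 0.15, adjusted p 0.238) and for Psmb9 1.41 (SE 0.38, adjusted p 0.598). The sizes depended on the control libraries. Without N2 the value of Psmb9 was 0.88 and without N1 it was 2.30, that of Psmb8 0.75 and 1.99, that of Nlrc5 1.002 and 2.40 and that of H2-K1 0.73 and 1.37, while Tapbp stayed between 0.67 and 0.85.

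In EY against N all 10 values were positive again, with a median of 0.89 against -0.05 over all genes, and 5 of 10 were called higher (9.31% of genes). They were Tap1, by 1.43 (SE 0.30, edgeR adjusted p 0.0218), Tapbp, by 0.74 (SE 0.15, adjusted p 0.0218), Psmb8, by 1.41 (SE 0.35, adjusted p 0.0351), H2-K1, by 0.89 (SE 0.23, adjusted p 0.0361), and Nlrc5, by 1.48 (SE 0.40, adjusted p 0.0431). H2-D1 (0.95, SE 0.31, adjusted p 0.0675), Psmb9 (0.90, SE 0.38, adjusted p 0.128) and B2m (0.68, SE 0.29, adjusted p 0.123) did not pass, nor did Tap2 (0.35, SE 0.315) and Erap1 (0.38, SE 0.21). The 5 calls were lost without N1, without N2 and without EY2, fits in which far fewer genes of any kind were called. Leaving out any other library also left fewer members called. On leaving out 1 library all 5 log2 fold changes stayed positive, between 0.62 and 0.87 for Tapbp. Without N2 and without N1 they were 0.94 and 2.20 for Psmb8, 1.06 and 2.47 for Nlrc5, 1.08 and 1.98 for Tap1 and 0.62 and 1.29 for H2-K1. All 5 also stayed positive without EY1, the library with 170 epithelial cells and the most immune panel RNA. Among cells with at most 1 UMI of the immune panel, EY1 had no cell and dropped out of the fit. EY2 kept 250 of 2027 epithelial cells and Y1 kept 223 of 1289. The panel holds Cd74, which is also on the list of interferon gamma targets used below, so this limit can also leave out responding epithelial cells. It also holds S100a8, which made up 1148 of the panel's 2369 CPM in EY1 epithelial cells and 370 of 674 CPM in EY2. Whether that S100a8 RNA came from the epithelial cells themselves or from immune cells was not tested. No member kept its call in that fit, and the log2 fold changes of Tap2 and Erap1 were -0.07 and -0.17.

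**Figure D2:**
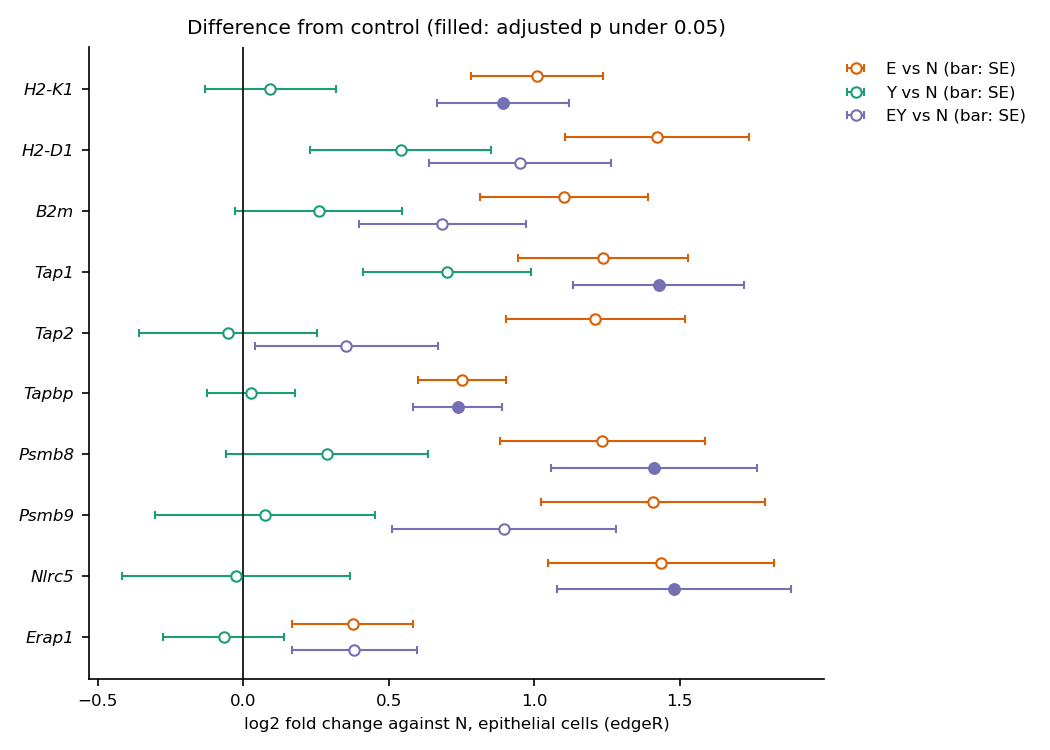
Fitted log2 fold change of each gene against N in epithelial cells (points) with its standard error (bars), for E, Y and EY, with filled points for an adjusted p under 0.05. E and EY lie to the right of 0 for every gene, while Y lies between -0.07 and 0.70.

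In Y against N the values ran from -0.07 to 0.70 with a median of 0.08, and 0 of 10 passed in edgeR (0.457% of genes), 1 of 10, Tap1, reached an unadjusted p under 0.05 (12.2%) and DESeq2 called 0 (3.31%). Over all 8 libraries in an additive model, the effect of YAP had a median of 0.00 over the members, from -0.44 to 0.45 with SEs from 0.11 to 0.27. Neither edgeR (9.33% of 13122 genes), nor an unadjusted p under 0.05 (31.7%), nor DESeq2 (18.8%) called any of the 10. Changes within these errors were not detectable. In the same model the effect of E6-E7 was positive for all 10, with a median of 0.91, from 0.42 (Erap1, SE 0.15) to 1.48 (Nlrc5, SE 0.27). Tapbp alone was called higher, by 0.74 (SE 0.11, edgeR adjusted p 0.0330), where 0.434% of genes were, while 10 of 10 reached an unadjusted p under 0.05 (11.5%) and DESeq2 called 6 (1.88%). Next to Tapbp came H2-K1, at 0.91 (SE 0.16, adjusted p 0.0606), Nlrc5, at an adjusted p of 0.0796, and Psmb8, at 1.18 (SE 0.24, adjusted p 0.110). The call of Tapbp was lost on leaving out any 1 library other than EY2, while its log2 fold change then stayed between 0.68 and 0.80.

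Adding E6-E7 to active YAP (EY against Y) gave positive values for all 10, from 0.41 to 1.503, with 0 called by edgeR (0.0443%), 5 at an unadjusted p under 0.05 (23.4%) and 4 by DESeq2 (6.52%). Adding YAP to E6-E7 (EY against E) gave values from -0.86 to 0.19 with a median of -0.07. Of the 10, edgeR called 0 (16.4%), an unadjusted p under 0.05 was reached by 1 (35.8%) and DESeq2 called 0 (19.4%). The interaction is the part of the EY difference that the E and Y differences, added on the log2 scale, leave over. It ran from -1.01 to 0.07 over the members, with SEs from 0.21 to 0.55, and edgeR called 0 of 10 (0% of genes), 0 reached an unadjusted p under 0.05 (11.5%) and DESeq2 called 0 (0.661%). These comparisons share libraries and are not independent of each other.

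Other genes around the pathway were taken in lists by role, whose counts stand beside the 0.434% of all genes called higher with E6-E7. Of 10 other class I heavy chain genes tested in the additive model, 2 were called higher with E6-E7 and 0 lower, with a median of 1.01. H2-Q6 rose by 2.15 (SE 0.21, edgeR adjusted p 0.0145) and H2-Q7 by 1.64 (SE 0.22, adjusted p 0.0306). Both encode non-classical class I chains and are close copies of each other, so the count of each is uncertain. H2-Q6 had 6.40 and 4.23 CPM with neither transgene, 28.4 and 33.5 with E6-E7 alone, 6.85 and 10.7 with YAP alone and 29.3 and 31.7 with both. Of 11 peptide loading and proteasome partners, 1 was called higher and 0 lower. It was Psme1, a subunit of the interferon-induced proteasome activator, which rose by 0.71 (SE 0.10, edgeR adjusted p 0.0347). Of 12 constitutive proteasome subunits, 0 were called with E6-E7 (2 at an unadjusted p under 0.05 in edgeR), and in EY against N 2 were, Psma7 by 0.59 and Psma3 by 0.49 (edgeR adjusted p 0.0371 and 0.0448), beside 9.31% of all genes.

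Of 27 regulators and interferon receptors, 2 were called higher with E6-E7 and 0 lower. Stat2, part of the interferon-activated transcription complex, rose by 1.76 (SE 0.23, edgeR adjusted p 0.0306) and Irf7, an amplifier of the response, by 2.09 (SE 0.30, adjusted p 0.0327). Their median over all 27 was 0.02. Of 14 genes tested of an interferon-induced panel, all 14 had positive values with a median of 2.35, and 5 were called higher: Oas1a, Cmpk2, Rsad2, Zbp1 and Oasl2. The largest of these, Rsad2, rose by 3.85 (SE 0.56, edgeR adjusted p 0.0330). Of 18 targets typical of interferon gamma, 2 were called higher and 0 lower, Gbp3 by 2.22 and Igtp by 1.95 (both edgeR adjusted p 0.0306), with a median of 1.91. Of 6 interferon genes, only Ifng was tested in any epithelial group comparison. It was at 1.63 CPM or less in the epithelial cells of every library and was called in none. For the effect of YAP, where 5.49% of all genes and 0 of the 10 members were called higher, 0 of the 14 panel genes, 2 of the 18 interferon gamma targets and 1 of the 27 regulators were called higher, and 0 were called lower.

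The 8 genes whose epithelial levels over the 8 libraries were most like the mean of the class I members, among 5094 genes averaging 20 CPM or more, were H2-Q4 (Pearson r 0.986), Parp14 (0.972), Rnf213 (0.965), Xaf1 (0.957), Oasl2 (0.952), Ube2e1 (0.947), Ifit1 (0.947) and Parp12 (0.945). H2-Q4 is another class I heavy chain gene, so sequence likeness to members may affect its counts and its r. Ube2e1 spanned 76.6 to 88.6 CPM only, while Ifit1 spanned 6.17 to 114 CPM.

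Class I genes had higher levels in the epithelial cells richest in interferon-induced transcripts. Cells in which the panel held at least 0.2% of UMIs made up 1.42 and 0.241% of epithelial cells in the control libraries, 21.2 and 14.3% in the E libraries, 2.64 and 5.39% in the Y libraries and 11.8 and 17.4% in the EY libraries. The 4 libraries with E6-E7 had the 4 largest shares. The cut lies in a continuous range, and 9 to 1528 cells of a library fell between 0.1 and 0.4%. In the 7 libraries with at least 20 such cells (N2 had 1), every one of the 10 genes was higher in these cells than in the rest of the epithelium in 7 of 7 libraries, as 3.21% of 11705 genes averaging 1 CPM or more in epithelial cells were. The ratio had a median of 1.46 for H2-D1, 1.47 for Erap1, 1.63 for H2-K1, 1.67 for B2m, 1.96 for Tap1, 2.40 for Psmb8, 2.49 for Psmb9, 2.57 for Nlrc5, 2.58 for Tapbp and 3.08 for Tap2.

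**Figure D3:**
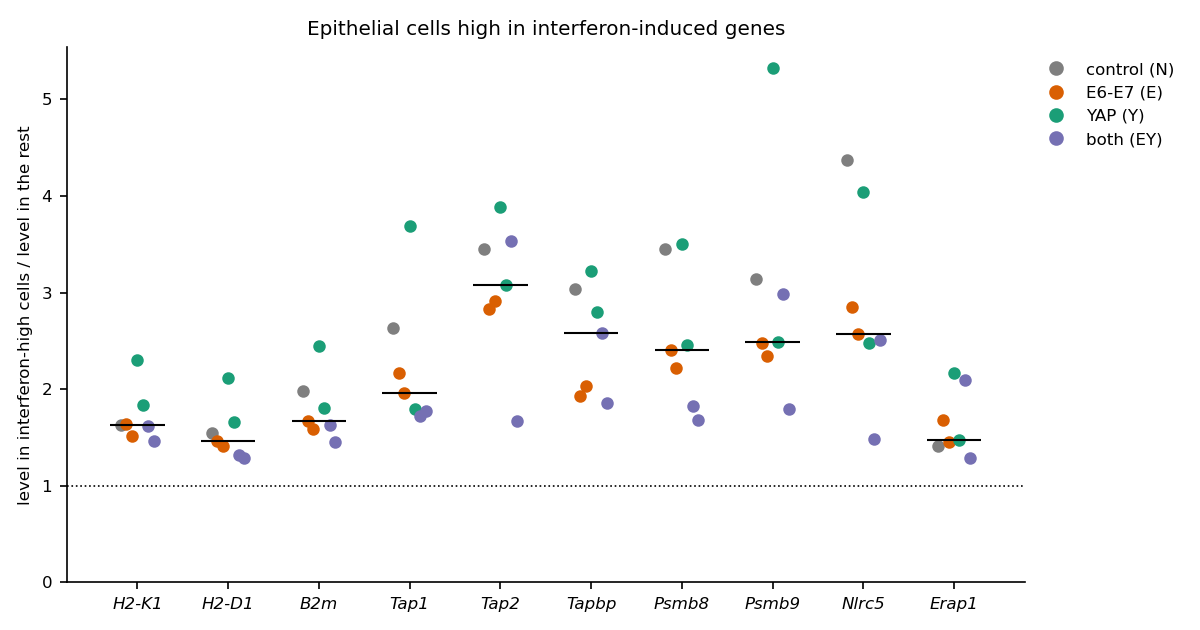
Ratio of each gene's level in epithelial cells with at least 0.2% interferon panel UMIs to its level in the other epithelial cells (linear axis, dotted line at 1), with 1 point per library and a bar at the median of the 7 libraries. Every point is above 1, and Tap2 has the highest median at 3.08.

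With those cells left out, the same 6 genes had all 4 libraries with E6-E7 above all 4 without it (2.36% of 11695 genes). H2-K1 then stood at 673 and 411 CPM in the control libraries, 924 and 1168 in the E libraries, 498 and 623 in the Y libraries and 926 and 926 in the EY libraries. Nlrc5 was at 6.03 to 8.14 CPM with E6-E7 and 1.61 to 4.25 without it. For Psmb9 the margin was small, with 86.4 CPM in EY1 and 85.8 in N1.

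Basal cells, those with more UMIs of Krt5, Krt14 and Krt15 than of Krt13 and Krt4, were compared with the differentiating cells of the same library. EY1 had 16 differentiating cells, too few, so 7 libraries entered the fit. With the library as a block, 3 of 10 members were called higher in basal cells (17.2% of 12578 genes) and 0 lower, beside 30.5% of genes called in either direction. They were Psmb8, by 0.62 (SE 0.09, edgeR adjusted p 0.000180), Erap1, by 0.36 (SE 0.12, adjusted p 0.0335), and B2m, by 0.28 (SE 0.08, adjusted p 0.0210). Psmb8 was higher in the basal cells of 7 of 7 libraries, where it spanned 67.2 to 330 CPM against 41.3 to 227 CPM in differentiating cells. Tap1 and Tapbp had log2 differences of 0.00 and -0.01. Without N1 and without E1 only Psmb8 remained called, where 21.8% and 24.1% of genes were called in either direction.

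Immune cells had more of the pathway than the epithelium around them. With the library as a block, all 10 genes were called higher in immune cells (39.1% of 14535 genes), by 0.38 (Erap1, SE 0.11, edgeR adjusted p 0.0109) to 2.15 (Nlrc5, SE 0.26, adjusted p 2.05e-05), with a median of 1.69. H2-K1 had 2136 and 2052 CPM with neither transgene, 3102 and 3513 with E6-E7 alone, 2119 and 2016 with YAP alone and 1142 and 1321 with both in immune cells. The E libraries were highest and the EY libraries lowest. The immune level was 2.81 to 4.97 times the epithelial one in N, E and Y, and 1.14 and 1.33 times in EY1 and EY2. Tap1 was 0.954 times and Erap1 0.778 times the epithelial level in EY2, and Erap1 0.654 times in EY1, so 7 and 6 of 8 libraries were higher in immune cells for these genes. In each library at most 4.89% of any member's epithelial level would be reached by immune RNA at the share that the immune panel gives. With that amount taken off, the same 6 genes still separated the libraries by E6-E7. The share rests on this 1 panel, and other marker lists give smaller or larger shares that were not taken off. In N1, lymphoid markers were at 7.85 CPM in epithelial and 3786 in immune cells, and monocyte or macrophage markers at 194 and 6445.

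**Figure D4:**
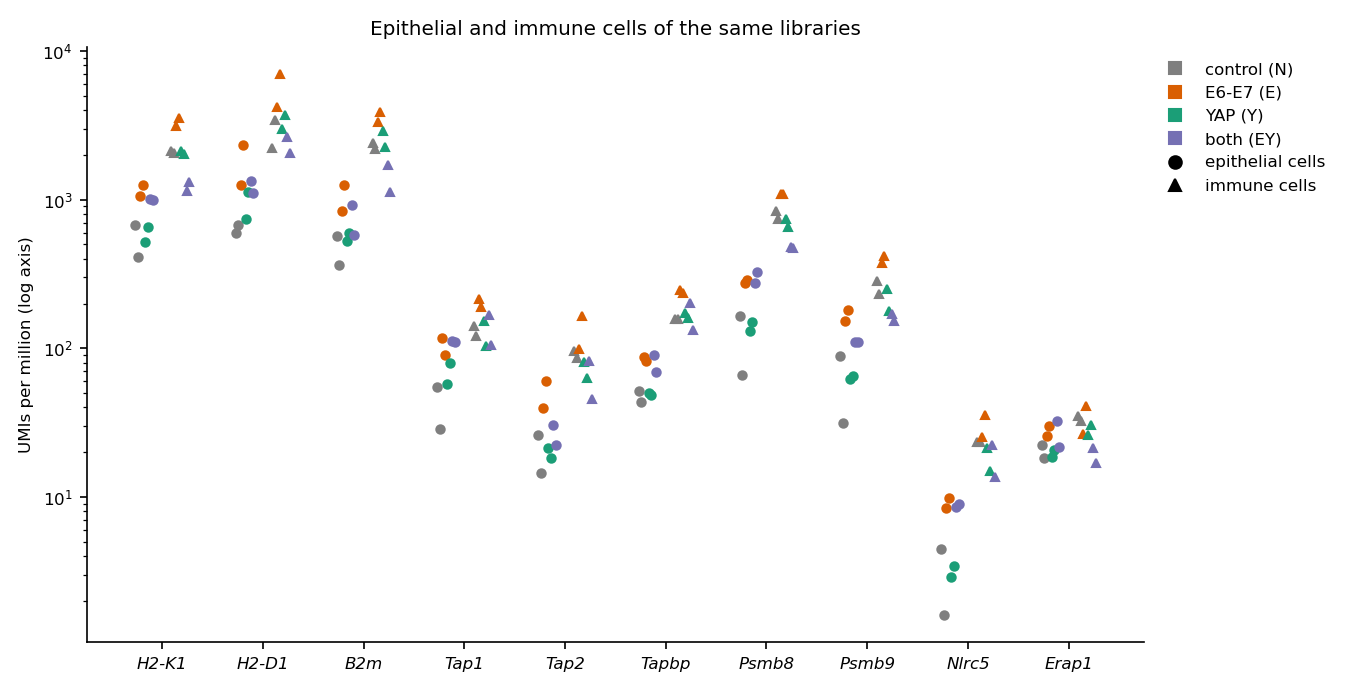
Level of each gene in the epithelial cells (circles) and immune cells (triangles) of the 8 libraries, in CPM on a log axis, coloured by group. Triangles lie above circles of the same colour for most genes, with the smallest gaps in EY and for Erap1.

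The same group comparisons were made in immune cells. All 10 members had overlapping immune levels between libraries with and without E6-E7 (0.508% of 12200 genes were separated). In E against N 9 of 10 had positive values with a median of 0.61, and edgeR called 0 (0% of 12723 genes), with 5 at an unadjusted p under 0.05 (3.52%) and 0 by DESeq2 (0.368%). In Y against N edgeR called 0 (0%), with 0 at an unadjusted p under 0.05 (7.71%) and 0 by DESeq2 (1.08%). In EY against N it called 0 (13.6%), with 1 (32.1%) and 0 (14.9%) by the same 2 rules, and the edgeR count changed without EY2. For the effect of YAP the counts were 0 in edgeR (3.73% of 12233 genes), 0 unadjusted (25.8%) and 0 in DESeq2 (10.6%), and for that of E6-E7 they were 0 in edgeR (0%), 2 unadjusted (12.1%) and 0 in DESeq2 (1.25%).

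The makeup of the immune cells differed between libraries, and its part in these levels was not tested. Each cell was put in the class whose marker list held most of its UMIs. Neutrophils were 60.7% of immune cells in EY1 and 45.0% in EY2, against 0.155% (E1) to 11.0% (Y1) in the other 6 libraries. H2-K1 had a median over libraries of 515 CPM in neutrophils (5 libraries with at least 20 such cells), 1226 in dendritic or Langerhans cells (5 libraries), 1977 in monocytes or macrophages and 2718 in lymphoid cells (8 libraries each). Psmb8 was at a median of 235 CPM in neutrophils, 799 in lymphoid cells, 809 in monocytes or macrophages and 1085 in dendritic or Langerhans cells.

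In lymphoid cells and in monocytes or macrophages, H2-K1 of the EY libraries overlapped with that of N and Y. In lymphoid cells it had 2446 and 2504 CPM with neither transgene, 3469.6 and 3707 with E6-E7 alone, 2731 and 2792 with YAP alone and 2705 and 2494 with both. In monocytes or macrophages it stood at 1980.0 and 1511 CPM in the control libraries, 3031 and 3379.8 in the E libraries, 1974 and 1667 in the Y libraries and 1823 and 1982 in the EY libraries. In both classes the E libraries were highest and the other 6 libraries overlapped. In neutrophils H2-K1 stood at 951 CPM in N2 (48 cells), 2059.8 in E2 (69 cells), 514 in Y1, 515 in EY1 and 497 in EY2. There both EY libraries lay at the level of Y1 and below N2, the control library that had at least 20 such cells. B2m differed in EY2, which was the lowest library in both lymphoid cells and monocytes or macrophages, with lymphoid levels of 2163 and 2161 CPM in the control libraries, 2933 and 3584 in the E libraries, 2598 and 2237 in the Y libraries and 2371 and 1449 in the EY libraries. All 4 libraries with E6-E7 lay above the other 4 for 1 member in lymphoid cells, Tapbp (1.48% of 11930 genes), and for 1 in monocytes or macrophages, Tap1 (1.67% of 11658 genes).

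**Figure D5:**
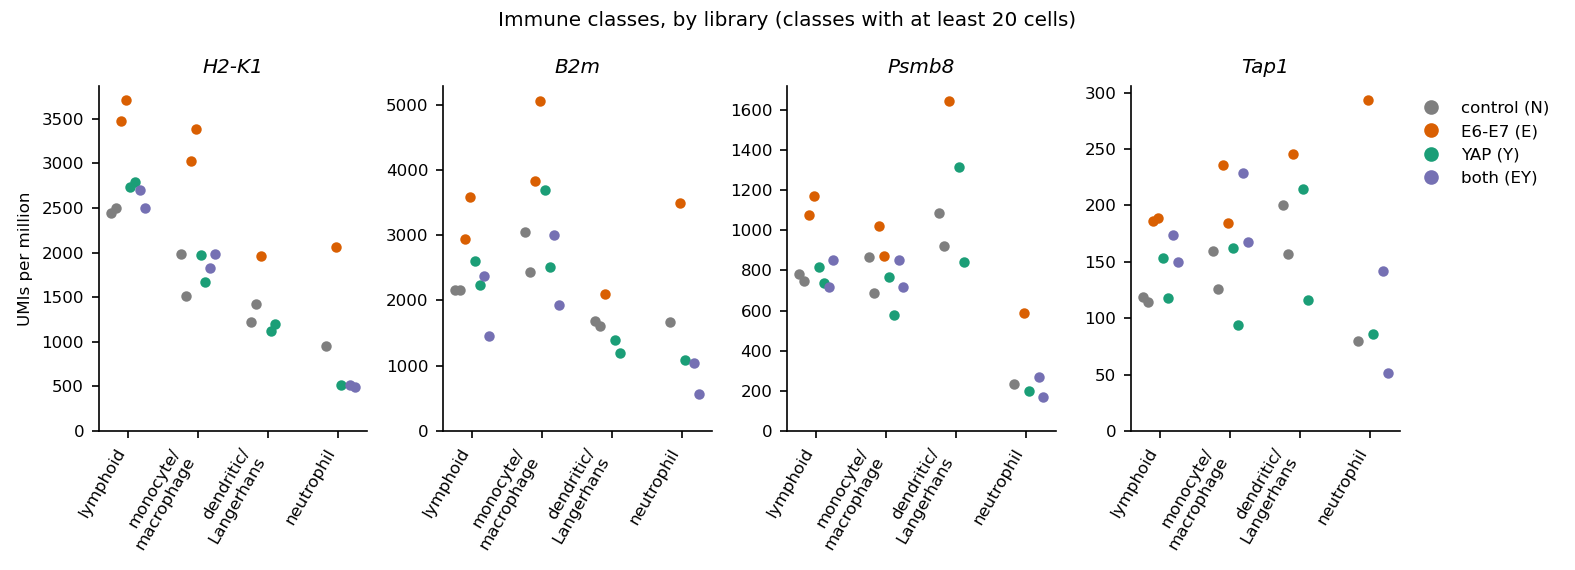
Level of H2-K1, B2m, Psmb8 and Tap1 in 4 immune classes, in CPM (linear axis from 0), with 1 point per library for classes with at least 20 cells. Neutrophils have the lowest medians of H2-K1 and Psmb8, at 515 and 235, and E libraries are highest in lymphoid cells.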

How the data were processed

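Single viable cells of mouse tongue epithelium were profiled by 3' droplet sequencing. The authors deposited UMI counts per gene and barcode, unscaled, made with Cell Ranger 5.0.0 (file header) on mm10 (submitters' processing notes). Following the study, cells needed 1000 to 5500 genes, no more than 30000 UMIs and a mitochondrial share up to 7%. Doublets were not called, as the study names no caller, and 479 cells with both keratins and Ptprc and 1024 with neither were left out. UMIs were summed per library and cell kind where at least 20 cells were found, giving 2454816 to 55154619 UMIs per library in epithelial cells and 2862632 to 31569167 in immune cells. CPM are UMIs per 1e6 of that sum, without further scaling, and intervals for counting error are not attached to them.

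The summed counts were tested with edgeR 4.0.16 under R 4.3.3 (genes kept by filterByExpr, TMM factors from 0.953 to 1.04 in epithelial and 0.696 to 1.17 in immune cells, quasi-likelihood test, Benjamini-Hochberg adjustment over all genes tested). Contrasts came from a fit of group means, and each transgene's effect from an additive fit. The comparisons of cell kinds had the library as a block. A gene was called at an adjusted p under 0.05, and the SE was taken as the size of the log2 fold change over the root of its F statistic. Alternatives were DESeq2 1.42.0, its size factors, no filter on low counts, other cell limits and leaving out each library. Limits of 1% keratins and of 0.5% immune panel, and the separation of libraries under other settings, were added after seeing the data. The additive edgeR fit was tested on simulated epithelial counts, while the other comparisons, DESeq2, the separation counts and the cell limits were not. P-values set each difference against the spread between these libraries, estimated over all groups together. The members and lists were chosen with earlier results of these data known. Named were all members, list genes called for E6-E7 or with the smallest adjusted p in EY against N, and the 8 most alike genes. Of the listed genes, 4 were not among the genes counted, and others were left untested by the filter on low counts. Python 3.11.15 with pandas 2.3.3, numpy 2.4.6, scipy 1.17.1 and matplotlib 3.10.9 was used. Promoters came from RefSeq and positions from GENCODE, in which all 10 identifiers matched.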

Additional observations from a re-analysis of the deposited data

How the results depend on the processing

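The direction of the members' log2 fold changes in E against N, in EY against N, with E6-E7 and between immune and epithelial cells was kept under every alternative run, except for Tap2 (-0.0697) and Erap1 (-0.169) in EY against N with at most 1 immune panel UMI, a fit without EY1. The number of members called was less stable, and the cause was not tested. It is given here with the percentage of all tested genes called. With DESeq2 it was 8 in E against N (0.954%), 4 in EY against Y (6.52%), 6 with E6-E7 (1.88%) and 5 in basal cells (29.6%). Without a filter on low counts it was 9 in E against N (1.69%), 1 in Y against N (5.56%), 8 in EY against N (19.7%), 6 in EY against Y (9.74%), 2 in EY against E (18%), 1 in the interaction (3.09%), 9 with E6-E7 (3.52%) and 1 in immune E against N (1.40%). Without upper limits on genes and UMIs it was 1 in E against N (0.445%), 1 in Y against N (10.2%), 2 for YAP (42.1%), 0 with E6-E7 (0.243%) and 7 in basal cells (43.3%). With at least 200 genes per cell it was 5 in basal cells (31.8%), with at most 1 immune panel UMI 0 in EY against N (19.1%) and 0 with E6-E7 (0.140%), and with keratins of at least 1% it was 2 with E6-E7 (0.521%). Leaving out 1 library gave 0 to 3 in EY against N, 0 to 1 with E6-E7, 0 to 1 in immune EY against N and 1 to 4 in basal cells. Members separated by E6-E7 were then 6 to 10, with 10 without EY2 (4.61% of all genes), 8 without N1 (3.88%) and 8 without Y2 (5.79%), and all genes ranged from 3.45 to 6.71%. A group left with 1 library is assumed to vary like the others. Without upper limits on genes and UMIs, 4 members were separated by E6-E7 (2.67% of 11644 genes), against 6 in the main run. Keratins of at least 5% left at least 20 cells only in N1 (20) and E1 (52), so that fit was not run. No paired analysis was possible because the replicate numbers follow accession order and the labels pair no samples across groups. The titles carry animal numbers, some close to each other, but nothing in them marks a shared litter or batch. Depth limits Nlrc5 most, and EY1 rests on 170 epithelial cells.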
